A study of Mus musculus with 7 samples.

Results

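Fkbp5 and 8 other classical target genes of glucocorticoids were followed in spleens of mice lacking the formyl peptide receptor gene Fpr2. The 9 genes, Fkbp5, Tsc22d3, Zbtb16, Klf9, Sgk1, Nr3c1, Ddit4, Mt1 and Mt2, were chosen by name as glucocorticoid response genes and make up 9 of the 55414 genes in the count table. They were chosen with earlier results of these data known. Nr3c1 encodes the glucocorticoid receptor itself, and the others are genes it is known to induce. Polyadenylated RNA was sequenced from spleens of Fpr2KO mice (n = 4) and of WT mice (n = 3), whose genotype the labels give as C57BL/6N. The labels give no age, sex, treatment or time of sampling for either group and no strain background or allele for the Fpr2KO mice. They number the replicates without saying that each is a separate animal, and the spread behind the p-values may therefore be technical.

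Glucocorticoids are steroid hormones of the adrenal cortex whose blood level follows the time of day and rises under stress. Bound to hormone, the receptor leaves its chaperone complex, enters the nucleus and binds response elements in DNA, which raises transcription of some genes and lowers that of many inflammatory genes. In lymphoid tissue the hormone is known to kill immature lymphocytes and to move others out of the circulation, and annexin A1, a glucocorticoid-induced protein, is a ligand of Fpr2. Fkbp5 encodes FKBP51, a co-chaperone that lowers the receptor's affinity for hormone and so closes a feedback loop. Tsc22d3 encodes GILZ, a leucine zipper protein that restrains NF-kB and AP-1.

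The libraries held 16424799 to 18692809 counts in Fpr2KO and 14968605 to 16600334 in WT. Fpr2 had 0 reads in each of the 4 Fpr2KO libraries, against 537, 479 and 477 reads in WT. Among all 16089 genes tested, 6 passed edgeR's test at a Benjamini-Hochberg adjusted p under 0.05. Some libraries stood apart. The summed level of 10 pancreatic acinar markers was 832 CPM (counts scaled to library size) in Fpr2KO replicate 1 and 472 CPM in Fpr2KO replicate 2, against 23.8 to 49.1 CPM in the other 5 libraries. WT replicate 3 had the highest sum of adipocyte markers, 45.1 CPM against at most 19.6 CPM elsewhere, and of plasma cell markers, 5332 CPM against at most 3639 CPM elsewhere. Erythroid markers summed to 51640, 10050, 19300 and 25330 CPM in the Fpr2KO libraries and to 42800, 92130 and 14970 CPM in the WT libraries. B cell markers, which define the bulk of splenic lymphocytes, summed to 2878 to 3284 CPM in Fpr2KO and 3038 to 3152 CPM in WT. T cell markers summed to 453 to 679 CPM in Fpr2KO and 506 to 658 CPM in WT, and red pulp macrophage markers to 2765 to 3145 CPM and 2724 to 3247 CPM in the same groups. Stromal markers reached 328 to 394 CPM in Fpr2KO and 260 to 374 CPM in WT. Hepatocyte markers stayed at or below 0.554 CPM in all 7 libraries. Adrenal cortex markers, 5 in all, summed to 126 to 200 CPM in Fpr2KO and 135 to 182 CPM in WT. Star, a cholesterol transport gene, made up 114 to 191 CPM of this in Fpr2KO and 125 to 177 CPM in WT, while Cyp11b1 and Cyp11b2, the enzymes of the last steps of corticosteroid synthesis, had 0 reads in every library.

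Promoter sequence was available for 7 of the 9 genes, in 14 windows of 300 bases, each running from 250 bases before to 50 bases after a RefSeq transcript start. The windows were searched on both strands for the palindromic glucocorticoid response element, which is AGAACA, any 3 bases and TGTTCT, for its arm TGTTCT alone, which reads AGAACA on the other strand, and for the metal response elements TGCACNC and TGCGCNC. Every match to the full element also holds 2 matches to its arm. The full element was present in 1 window, a start of Sgk1, and in 3 of the 32851 mouse promoters searched, or 0.00913%. The arm was in 19.0% of all promoters, TGCACNC in 12.6% and TGCGCNC in 15.4%. Mt1 held 3 matches to the metal elements and Mt2 held 4. The single windows of Fkbp5 and Klf9 held none of the motifs, and 6 of the 14 windows held none. A match describes letters and not a bound site, and a window without one says nothing about response elements elsewhere. The windows printed are the Sgk1 window with the full element at bases 62 to 76 (chr10:21993640-21993939, plus strand), the Tsc22d3 window with an arm at bases 66 to 71 (chrX:140600473-140600772, minus strand) and the Fkbp5 window (chr17:28486100-28486399, minus strand). They are followed by the neighbouring metallothionein promoters, Mt1 (chr8:94178839-94179138, plus strand) and Mt2 (chr8:94172368-94172667, plus strand), because those genes moved together. All are from RefSeq on GRCm38.p6, written 5′ to 3′ on the strand of the gene, with matches to the motifs in capitals.
Sgk1: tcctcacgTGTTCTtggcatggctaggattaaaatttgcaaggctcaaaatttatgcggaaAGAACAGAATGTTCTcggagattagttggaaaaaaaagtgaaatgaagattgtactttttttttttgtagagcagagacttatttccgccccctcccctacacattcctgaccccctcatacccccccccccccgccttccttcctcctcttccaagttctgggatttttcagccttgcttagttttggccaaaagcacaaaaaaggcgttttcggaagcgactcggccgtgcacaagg
Tsc22d3: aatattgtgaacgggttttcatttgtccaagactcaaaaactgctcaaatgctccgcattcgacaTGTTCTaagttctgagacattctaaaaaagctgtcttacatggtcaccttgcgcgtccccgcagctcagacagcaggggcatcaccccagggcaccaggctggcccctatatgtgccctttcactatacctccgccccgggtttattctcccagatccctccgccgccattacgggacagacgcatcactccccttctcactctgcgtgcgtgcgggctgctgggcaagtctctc
Fkbp5: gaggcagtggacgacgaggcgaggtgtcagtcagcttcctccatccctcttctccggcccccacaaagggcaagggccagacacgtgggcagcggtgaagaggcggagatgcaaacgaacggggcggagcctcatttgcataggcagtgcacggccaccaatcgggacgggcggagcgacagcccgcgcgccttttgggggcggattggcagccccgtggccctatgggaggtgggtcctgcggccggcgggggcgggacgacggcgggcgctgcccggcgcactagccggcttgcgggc
Mt1: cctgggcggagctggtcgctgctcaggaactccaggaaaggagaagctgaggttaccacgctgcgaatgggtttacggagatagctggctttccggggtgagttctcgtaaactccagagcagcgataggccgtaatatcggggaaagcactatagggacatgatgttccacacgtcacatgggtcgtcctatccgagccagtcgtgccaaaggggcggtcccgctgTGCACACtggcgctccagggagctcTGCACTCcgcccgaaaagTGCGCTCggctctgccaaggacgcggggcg
Mt2: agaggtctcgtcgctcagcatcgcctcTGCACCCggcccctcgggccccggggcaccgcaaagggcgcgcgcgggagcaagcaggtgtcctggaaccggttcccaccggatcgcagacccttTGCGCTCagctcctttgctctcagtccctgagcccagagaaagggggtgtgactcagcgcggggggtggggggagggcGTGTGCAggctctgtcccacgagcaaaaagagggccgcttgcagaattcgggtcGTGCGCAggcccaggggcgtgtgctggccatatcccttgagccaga

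None of the 9 glucocorticoid targets passed edgeR's test between Fpr2KO and WT spleens. Fitted levels were lower in Fpr2KO for 7 of them and higher for Nr3c1 and Mt2, and the median log2 fold change (Fpr2KO minus WT) was -0.31, where the median of all tested genes was -0.005 and 51.4% of them had a fitted value below 0. All 9 passed the filter on low counts. The share called among all tested genes was 0.0373%. DESeq2 also called 0 of the 9, against 0.354% of all genes (0.293% as lower), and limma-voom 0 of the 9, against 0.0311%. At an unadjusted p under 0.05 there were 2, Fkbp5 and Klf9, both lower, where 4.98% of all tested genes lay under that value, 3.07% as lower and 1.91% as higher. The groups overlapped in all 9, while they did not overlap in 5.91% of all tested genes, 3.18% as lower and 2.73% as higher. Read as a set by library, 7 of the 9 genes were highest in WT replicate 1 or 2 and the remaining pair, the metallothioneins, in Fpr2KO replicate 1. WT replicate 3 was highest for none. How many of all tested genes were highest in each library was not counted, so these counts have no background share.

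**Figure D1:**
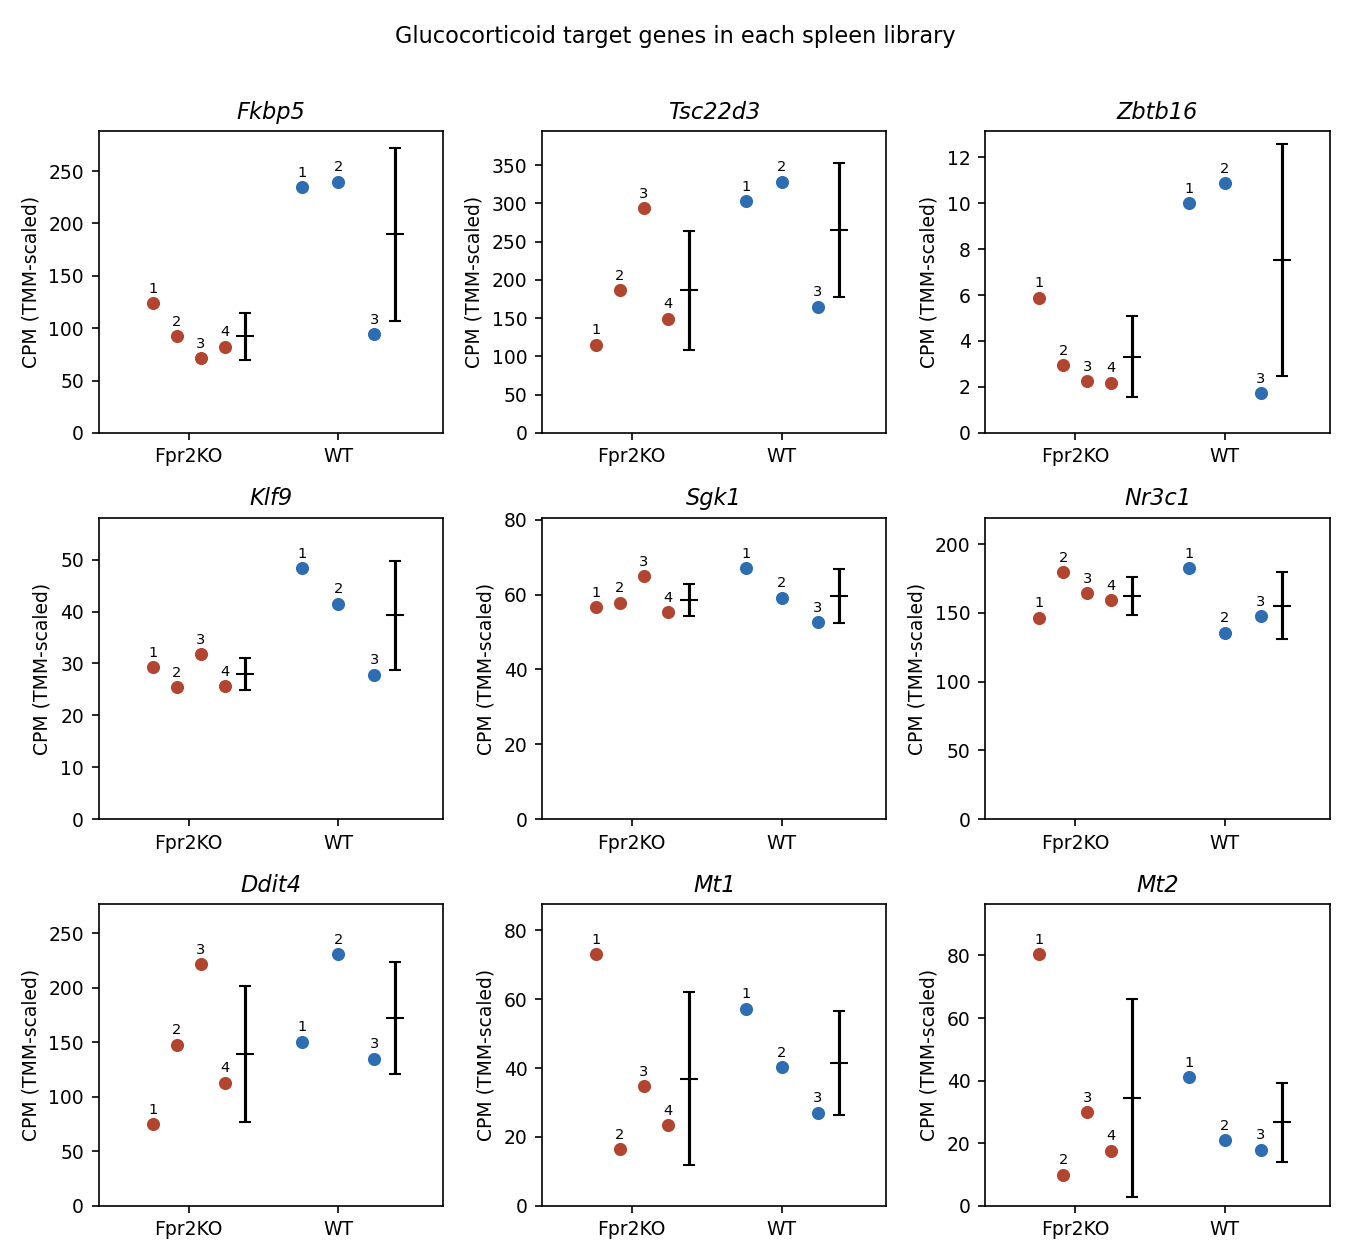
TMM-scaled CPM (vertical axis from 0) of each of the 9 genes in the 4 Fpr2KO libraries (red) and the 3 WT libraries (blue), with replicate numbers above the points and the group mean with its SD as a black bar. WT replicates 1 and 2 lie above every Fpr2KO library for Fkbp5, Zbtb16, Klf9 and Tsc22d3, while WT replicate 3 lies within the Fpr2KO range, or below it for Zbtb16.

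Fkbp5 (ENSMUSG00000024222, chromosome 17, 28399094 to 28517527, minus strand, GRCm38) had 124, 92.3, 71.6 and 82.4 CPM in Fpr2KO replicates 1 to 4, against 235, 240.0 and 94.1 CPM in WT replicates 1 to 3. The high WT values came from replicates 1 and 2, and Fpr2KO replicate 1 lay above WT replicate 3, so the groups overlapped. Mean levels were 92.5 ± 22.4 CPM in Fpr2KO (SD, n = 4) and 190 ± 82.7 CPM in WT (SD, n = 3), a log2 fold change of -1.04 with SE 0.37. The difference did not pass (edgeR adjusted p = 0.95; unadjusted p = 0.0307, the 517th smallest of 16089), and an exact two-sided permutation test of log2 CPM over the 35 ways to divide the libraries gave p = 0.114, where the smallest possible is 0.0286. DESeq2 gave -1.02 (SE 0.28, adjusted p = 0.063), the lowest adjusted p of any alternative. Without WT replicate 3 the log2 fold change was -1.36 (SE 0.19, edgeR adjusted p = 0.106). In bulk tissue, fewer cells of a type and less RNA per cell cannot be told apart.

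The order of the erythroid marker sums over the libraries matched that of Fkbp5 in part. WT replicate 2 was highest for both, and Fpr2KO replicate 1 was the highest of its group for both. Elsewhere the orders differed. Fpr2KO replicate 1 lay above WT replicate 1 for the erythroid sum (51640 against 42800 CPM) and below it for Fkbp5 (124 against 235 CPM). Fpr2KO replicate 2 had the lowest erythroid sum, 10050 CPM, but lay above Fpr2KO replicates 3 and 4 for Fkbp5. All 9 erythroid markers tested had lower fitted values, with a median of -0.51, and 0 passed edgeR's test or DESeq2. Pearson's r between log2 Fkbp5 and the log2 erythroid sum was 0.78 over the 7 libraries, and 0.78 after the group means were removed, given as a description of libraries that share preparation and scaling. With the erythroid score as a covariate, an alternative chosen after seeing the data, the Fkbp5 log2 fold change was -0.79 (SE 0.30, edgeR adjusted p = 0.73). Plasma cell marker sums ran the other way within the groups (r = -0.86 after the group means were removed). The neutrophil marker sum, 1357 to 2740 CPM in Fpr2KO and 3515 to 4588 CPM in WT, had r = 0.71 with Fkbp5 over the 7 libraries and 0.29 after the group means were removed. The part of plasma cell and neutrophil transcripts in the result was not tested. Fkbp5 lies 10.5 Mb from Fpr2 on the same chromosome. Of 42 other tested genes within 1 Mb of Fkbp5, 0 passed, and 5, or 11.9%, lay under an unadjusted p of 0.05, against 4.98% of all tested genes. The median of those neighbours was -0.034. On the side of lower coordinates the nearest tested genes were Tead3, a TEA domain transcription factor gene (log2 fold change -0.033), the ribosomal protein gene Rpl10a (0.058) and the Fanconi anaemia gene Fance (0.22). On the other side lay the long noncoding RNA E230001N04Rik (-0.47), the splicing kinase gene Srpk1 (0.034) and the p38 kinase gene Mapk14 (-0.031), and none of these 6 passed. Genes annotated within the Fkbp5 locus had at most 0.164 CPM on average.

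Relatives of Fkbp5 went both ways. Among 13 other members of the FKBP family of prolyl isomerases, 12 were tested, 6 lower and 6 higher, with values between -0.67 and 0.32 and a median of 0.005. None passed edgeR's test or DESeq2, and 0 lay under an unadjusted p of 0.05. The smallest p values belonged to Fkbp14 (0.32), Fkbp11 (-0.67), a gene of secretory cells, and Fkbp15 (-0.15). Fkbp4, which encodes FKBP52, the co-chaperone that opposes FKBP51 at the receptor, was at -0.039 (SE 0.096).

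The genes whose library profile was most like that of Fkbp5 were ranked by Pearson's r of log2 CPM over the 7 libraries, among 16088 other tested genes. The 5 highest protein-coding genes were the sorting receptor gene Sort1 (r = 0.99), Scrg1 (0.99), the synaptotagmin gene Syt6 (0.98), Cd300lg (0.98), an endothelial surface receptor gene, and the lipid phosphatase gene Lpin3 (0.98). Syt6, at 0.47 to 1.07 CPM, and Scrg1, at 0.47 to 3.35 CPM, were low, so their profiles rest on few reads. Sort1 had 70.1, 67.2, 64.5 and 64.0 CPM in Fpr2KO, against 79.8, 80.7 and 65.4 CPM in WT, the same order of WT libraries at a smaller amplitude. Zbtb16 ranked 29th (r = 0.94) and Klf9 159th (0.87). The other members ranked far lower, with Mt1 2206th (0.56), Tsc22d3 2963rd (0.48), Sgk1 4056th (0.37), Mt2 4791st (0.30), Ddit4 5983rd (0.19) and Nr3c1 9880th (-0.16).

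Zbtb16 (ENSMUSG00000066687, chromosome 9, 48654297 to 48836222) encodes PLZF, a zinc finger transcription factor of innate-like T cells that glucocorticoids induce in many tissues. It had 5.89, 2.95, 2.25 and 2.19 CPM in Fpr2KO, against 9.99, 10.9 and 1.72 CPM in WT. The lowest of all 7 values was WT replicate 3, with 28 reads, and the highest was WT replicate 2, with 166 reads. Group means were 3.32 ± 1.75 CPM in Fpr2KO (SD, n = 4) and 7.53 ± 5.05 CPM in WT (SD, n = 3). The log2 fold change was -1.18 with SE 0.66 and fell short of edgeR's threshold (adjusted p = 1; exact permutation p = 0.257). Leaving out WT replicate 3 gave -1.65 and leaving out WT replicate 2 gave -0.81. Markers of innate-like T cells and innate lymphoid cells, 7 of 7 tested, summed to 341 to 388 CPM in Fpr2KO and 351 to 374 CPM in WT, and their median log2 fold change was 0.07. Single markers went both ways, from -0.71 to 0.38. Under an unadjusted p of 0.05 lay 1 as lower and 1 as higher, where 3.07% and 1.91% of all tested genes did. The groups did not overlap in 1 as lower and 1 as higher, where 3.18% and 2.73% of all tested genes did not. The part of these cells in the Zbtb16 values was not tested. Within the groups, Zbtb16 followed Fkbp5 closely (r = 0.99 after the group means were removed, 7 libraries). With the erythroid covariate its log2 fold change was -0.67 (SE 0.48, edgeR adjusted p = 0.899).

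Klf9 (ENSMUSG00000033863, chromosome 19, 23141226 to 23168134), a Krüppel-like factor gene induced by both glucocorticoid and thyroid hormone, had 29.3, 25.4, 31.8 and 25.6 CPM in Fpr2KO, against 48.4, 41.5 and 27.8 CPM in WT. The Fpr2KO libraries kept within a 1.25-fold range and the WT libraries within a 1.74-fold range, and WT replicate 3 lay inside the Fpr2KO range. The means were 28.01 ± 3.06 CPM in Fpr2KO (SD, n = 4) and 39.25 ± 10.5 CPM in WT (SD, n = 3), a log2 fold change of -0.49 with SE 0.17 (edgeR adjusted p = 0.892; exact permutation p = 0.114). Leaving out WT replicate 1 gave -0.31, and leaving out WT replicate 3 gave -0.68 (edgeR adjusted p = 0.157). With the erythroid covariate the Klf9 log2 fold change was -0.38 (SE 0.15, edgeR adjusted p = 0.635). After the group means were removed, Klf9 had r = 0.62 with the erythroid sum, -0.73 with the plasma cell sum and 0.31 with the neutrophil sum. Among 13 relatives of Klf9, Tsc22d3 and Sgk1, 12 were tested, 9 lower and 3 higher, with a median of -0.084, and 0 passed edgeR's test or DESeq2. Klf7 (-0.33), Klf13 (-0.19) and Klf6 (-0.18) had the smallest p values, and Klf7 was the only one of the 12 under an unadjusted p of 0.05.

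**Figure D2:**
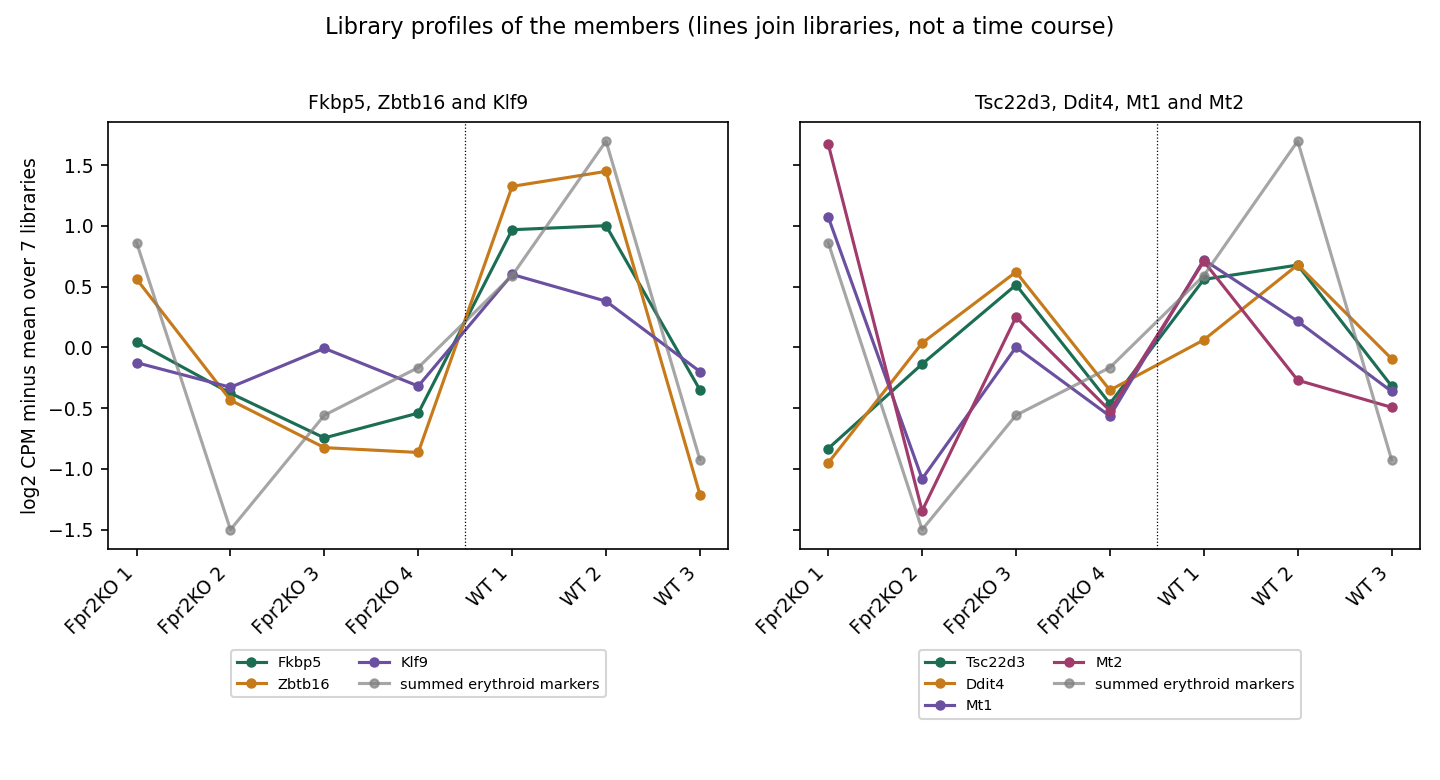
Log2 CPM of each gene, minus its own mean over the 7 libraries (vertical axis), by library (horizontal axis, Fpr2KO left and WT right of the dotted line), with the summed erythroid markers in grey in both panels. Fkbp5, Zbtb16 and Klf9 share peaks in WT replicates 1 and 2. Tsc22d3 and Ddit4 share a low point in Fpr2KO replicate 1, where Mt1 and Mt2 have their highest values.

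Tsc22d3 and Ddit4 shared another profile. Tsc22d3 (ENSMUSG00000031431, chromosome X, 140539528 to 140600659) had 115, 187, 293 and 149 CPM in Fpr2KO, against 303, 329 and 165 CPM in WT. Fpr2KO replicate 3 lay close to the high WT libraries, and WT replicate 3 lay between Fpr2KO replicates 2 and 4. Means were 186 ± 77.2 CPM in Fpr2KO (SD, n = 4) and 265 ± 88.0 CPM in WT (SD, n = 3), a log2 fold change of -0.51 with SE 0.39 (edgeR adjusted p = 1; exact permutation p = 0.229). The value was -0.82 without Fpr2KO replicate 3 and -0.33 with Fpr2KO replicate 1 or WT replicate 2 left out.

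Ddit4 (ENSMUSG00000020108, chromosome 10, 59949669 to 59951834) encodes REDD1, an inhibitor of mTORC1 that glucocorticoids, hypoxia and amino acid shortage induce. Its levels were 74.5, 148, 221 and 113 CPM in Fpr2KO, against 150.3, 231 and 135 CPM in WT. The values ranged 2.97-fold within Fpr2KO and 1.71-fold within WT, and the groups overlapped widely. The log2 fold change was -0.31 (SE 0.40; edgeR adjusted p = 1; exact permutation p = 0.4), with means of 139 ± 62.4 CPM in Fpr2KO (SD, n = 4) and 172 ± 51.3 CPM in WT (SD, n = 3). It ran from -0.62 without Fpr2KO replicate 3 to -0.04 without WT replicate 2. Tsc22d3 and Ddit4 had r = 0.91 over the 7 libraries, and 0.90 after the group means were removed. Of 14 hypoxia and amino acid stress genes, all tested, 10 were lower and 4 higher with a median of -0.036, and 0 passed edgeR's test or DESeq2. The glutathione-degrading enzyme gene Chac1 (-1.0) and the prolyl hydroxylase gene Egln3 (-0.54) had unadjusted p values under 0.05, and Ddit4l, the paralogue of Ddit4, was at 0.88.

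Sgk1 and the receptor gene varied least. Sgk1 (ENSMUSG00000019970, chromosome 10, 21882184 to 21999903), a kinase gene of ion transport and cell survival and the carrier of the full response element shown above, had 56.6, 57.8, 64.9 and 55.2 CPM in Fpr2KO, against 67.1, 59.1 and 52.6 CPM in WT. All 7 values lay within a 1.28-fold range, with means of 58.6 ± 4.30 CPM in Fpr2KO (SD, n = 4) and 59.6 ± 7.28 CPM in WT (SD, n = 3). The log2 fold change, -0.023 with SE 0.10 (edgeR adjusted p = 1; exact permutation p = 0.857), turned above 0 under several alternatives. Nr3c1 (ENSMUSG00000024431, chromosome 18) had 146, 179, 164 and 159 CPM in Fpr2KO, against 183, 135 and 148 CPM in WT, with a log2 fold change of 0.064 with SE 0.12 (edgeR adjusted p = 1; exact permutation p = 0.629). Its means were 162 ± 13.7 CPM in Fpr2KO (SD, n = 4) and 155 ± 24.5 CPM in WT (SD, n = 3). WT replicates 1 and 2, which had similar high levels of Fkbp5, held the highest and the lowest Nr3c1 values.

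The other genes of the receptor's machinery, its chaperones, cofactors and the enzymes that activate its hormone, likewise did not pass. Of 19 genes 18 were tested, 12 lower and 6 higher, and the median log2 fold change was -0.036, with values between -0.21 and 0.22. None passed edgeR's test or DESeq2, and 0 lay under an unadjusted p of 0.05. The smallest p values belonged to H6pd (-0.20), which supplies cofactor to the cortisone-activating enzyme, the chaperone gene Hsp90ab1 (-0.18) and the cyclophilin 40 gene Ppid (0.22). Hsd11b1, the activating enzyme, was at -0.06 and the mineralocorticoid receptor gene Nr3c2 at -0.21.

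The metallothionein genes were highest in a library of the Fpr2KO group. Mt1 (ENSMUSG00000031765, chromosome 8, 94179082 to 94180327) and Mt2 (ENSMUSG00000031762, chromosome 8, 94172664 to 94173568) lie 5514 bases apart and encode small cysteine-rich proteins that bind zinc and copper. Both respond to metals and to glucocorticoids. Mt1 had 73.1, 16.4, 34.8 and 23.5 CPM in Fpr2KO, against 57.2, 40.3 and 27.0 CPM in WT. Mt2 had 80.4, 9.93, 30.0 and 17.6 CPM in Fpr2KO, against 41.2, 20.9 and 17.9 CPM in WT. Fpr2KO replicate 1 was highest and Fpr2KO replicate 2 lowest for both genes, an 8.1-fold range for Mt2 and a 4.45-fold range for Mt1, so that the Fpr2KO libraries spanned all WT values.

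Neither metallothionein gene passed. Mt1 averaged 36.9 ± 25.2 CPM in Fpr2KO (SD, n = 4) and 41.5 ± 15.15 CPM in WT (SD, n = 3), and Mt2 averaged 34.5 ± 31.7 CPM in Fpr2KO and 26.7 ± 12.6 CPM in WT. Mt1 had a log2 fold change of -0.17 with SE 0.58 (edgeR adjusted p = 1; exact permutation p = 0.629) and Mt2 of 0.37 (SE 0.81; edgeR adjusted p = 1; exact permutation p = 1). Without Fpr2KO replicate 1 the values were -0.72 for Mt1 and -0.46 for Mt2, and without WT replicate 1 they were 0.13 and 0.83. The genes followed each other over the libraries (r = 0.95, and 0.99 after the group means were removed). Reads of Mt1 and Mt2 are uncertain to the extent that the related sequences share reads, and an antisense gene that overlaps Mt2, Gm45774, had 0.552 CPM on average. Beside these values, pancreatic acinar markers were high in both the highest and the lowest library, at 832 and 472 CPM. The hepatocyte genes, of a tissue rich in metallothionein, were at or below 0.554 CPM in total. The erythroid sum was also higher in Fpr2KO replicate 1 (51640 CPM) than in Fpr2KO replicate 2 (10050 CPM). With the erythroid covariate the log2 fold change was -0.022 (SE 0.36, edgeR adjusted p = 1) for Mt1 and 0.41 (SE 0.59, edgeR adjusted p = 0.975) for Mt2. The neutrophil sum was 2740 CPM in Fpr2KO replicate 1 and 1357 CPM in Fpr2KO replicate 2. After the group means were removed, the neutrophil sum had r = 0.80 with Mt1 and 0.78 with Mt2, and the erythroid sum had r = 0.74 and 0.64 with the same genes. The part of neutrophil and acinar transcripts in the result was not tested.

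Among 14 other metal and oxidant response genes, 12 were tested, 4 lower and 8 higher, with a median of 0.031, and 0 passed edgeR's test or DESeq2. Mt3 had reads in only 2 libraries, at most 0.215 CPM, and Mt4 had 0 reads in all 7. The zinc importer gene Slc39a10 was at 44.7 ± 4.13 CPM in Fpr2KO (SD, n = 4) and 38.0 ± 2.33 CPM in WT (SD, n = 3), a log2 fold change of 0.24 at an unadjusted p of 0.0361 (edgeR adjusted p = 0.978). The sulfiredoxin gene Srxn1 was at -0.27 and Slc39a8, another metal importer gene, at 0.51. The metal-sensing transcription factor gene Mtf1 was at 0.13 and the zinc exporter gene Slc30a1, a classical target of it, at 0.007.

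**Figure D3:**
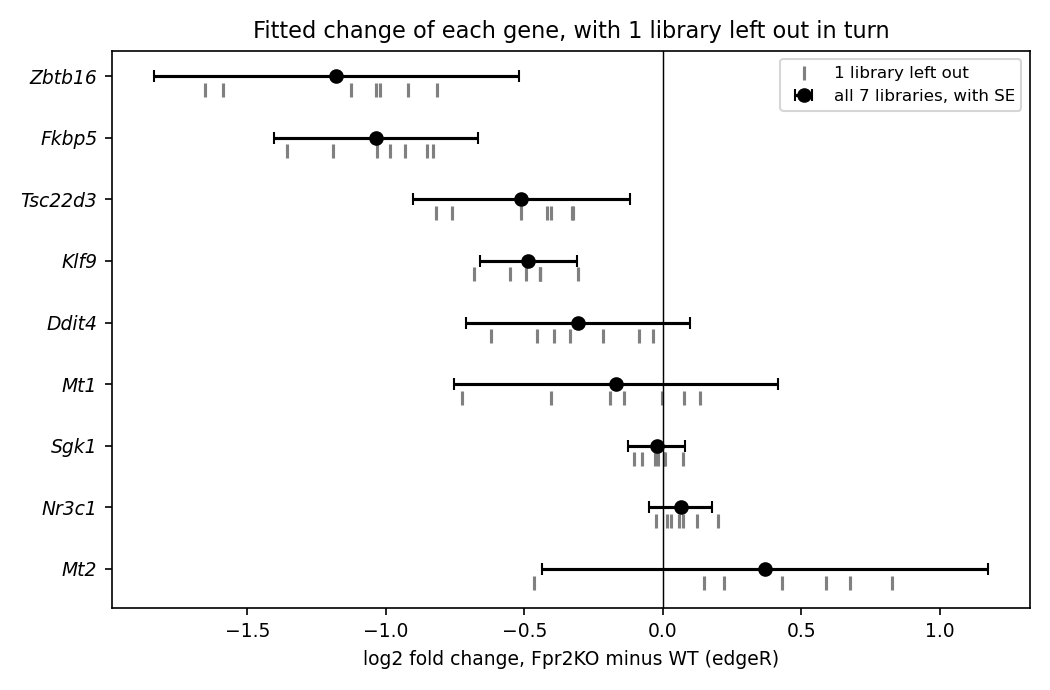
Log2 fold change (Fpr2KO minus WT, horizontal axis) of each of the 9 genes, with black points and bars for the edgeR estimate over all 7 libraries with its SE and grey ticks for the estimate with 1 library left out. Every tick of Fkbp5, Zbtb16, Klf9, Tsc22d3 and Ddit4 lies below 0, while those of Mt1, Sgk1, Nr3c1 and Mt2 fall on both sides.

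Other genes known to be induced by glucocorticoids mostly had lower fitted levels in Fpr2KO. All 32 were tested, 28 lower and 4 higher, the median log2 fold change was -0.31, and 0 passed edgeR's test or DESeq2. At an unadjusted p under 0.05 there were 8 lower and 1 higher, where 3.07% of all tested genes lay under that value as lower and 1.91% as higher. The list was drawn up with earlier results of these data known, so the counts describe it and are no independent support. The smallest p values belonged to Bcl2l11, Il7r and Pdk4. Bcl2l11, which encodes the death-promoting protein Bim of lymphocytes, was at 43.2 ± 2.90 CPM in Fpr2KO (SD, n = 4) and 54.5 ± 3.93 CPM in WT (SD, n = 3), without overlap of the groups (log2 fold change -0.33, SE 0.09, edgeR adjusted p = 0.613). Of the 32 genes, 1 did not overlap as lower and 0 as higher, where 3.18% and 2.73% of all tested genes did not. Il7r, the interleukin-7 receptor chain, was at -0.44 (SE 0.14, edgeR adjusted p = 0.817) and Pdk4, a pyruvate dehydrogenase kinase gene, at -0.78 (SE 0.26, edgeR adjusted p = 0.872).

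Several genes of this group showed the WT replicate 3 pattern of Fkbp5, and the following were chosen after their values were seen. Errfi1, an inhibitor of the EGF receptor, had 21.0, 28.01, 35.0 and 25.3 CPM in Fpr2KO, against 51.3, 55.1 and 28.9 CPM in WT. Pik3ip1, a PI3 kinase inhibitor gene, had 47.1, 56.5, 53.4 and 46.0 CPM in Fpr2KO, against 85.3, 90.0 and 43.8 CPM in WT. In both genes WT replicates 1 and 2 lay above all Fpr2KO libraries and WT replicate 3 did not. With all 7 libraries Pik3ip1 did not pass edgeR's test (log2 fold change -0.52, SE 0.24; exact permutation p = 0.229). Without WT replicate 3, Pik3ip1 passed edgeR's test (log2 fold change -0.79, SE 0.11, adjusted p = 0.0459), when 0.0909% of all tested genes did. That fit kept only WT replicates 1 and 2, the WT libraries in which Pik3ip1 was high. The gene was named after these values were seen, so the pass is no independent support. Dusp1, a MAP kinase phosphatase gene, was at -0.86 and Cebpd, a C/EBP transcription factor gene, at -0.88, and neither passed with all 7 libraries. Over the libraries, 21 of the 32 genes were highest in WT replicate 1 or 2 and 2 were highest in WT replicate 3. The share of all tested genes that were highest in those libraries was not computed, so this count has no background beside it.

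Some genes of this group also mark other cell types. Il1r2 (-1.50) and Lcn2 (-1.03) are also neutrophil genes, and 10 neutrophil markers summed to 2740, 1357, 2099 and 1462 CPM in Fpr2KO, against 3515, 4588 and 3776 CPM in WT, without overlap. All 10 neutrophil markers had lower fitted values, with a median of -1.06, and 5 passed DESeq2, against 0.293% of all genes as lower. By edgeR 0 passed, and 6 lay under an unadjusted p of 0.05, where 3.07% of all tested genes did as lower. Basophil and mast cell markers, 6 of 6 lower, summed to 26.8 to 47.2 CPM in Fpr2KO and 71.1 to 125 CPM in WT. Of these 6, 1 passed DESeq2, against 0.293% of all genes as lower, and 0 passed edgeR. All 6 lay under an unadjusted p of 0.05, against 3.07% of all tested genes as lower. The part of these cells in the induced group was not tested. Cd163, a macrophage scavenger receptor gene and a known glucocorticoid target, went against the group, with 171 ± 15.2 CPM in Fpr2KO (SD, n = 4) and 121 ± 33.3 CPM in WT (SD, n = 3), a log2 fold change of 0.49 with SE 0.17 (edgeR adjusted p = 0.884). Anxa1, the gene of the Fpr2 ligand annexin A1, was at -0.37 (SE 0.19, edgeR adjusted p = 1).

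Inflammatory genes that glucocorticoids repress were split evenly. Of 15 genes 10 were tested, 5 lower and 5 higher, with a median of 0.013, and 0 passed edgeR's test or DESeq2. The chemokine gene Ccl3 was at 2.68 ± 0.344 CPM in Fpr2KO (SD, n = 4) and 1.73 ± 0.359 CPM in WT (SD, n = 3), a log2 fold change of 0.63 at an unadjusted p of 0.0247 (edgeR adjusted p = 0.942). Nos2, inducible nitric oxide synthase, was at -0.60 and Ifng, interferon gamma, at 0.57. Il6, Il2, Cxcl2, Ptgs2 and Csf2 were too low to be tested.

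Clock genes were set beside the members because glucocorticoid levels follow the day. Of 15 genes other than Per1 14 were tested, 2 lower and 12 higher in Fpr2KO, with a median of 0.14, and 0 passed edgeR's test or DESeq2 and 0 lay under an unadjusted p of 0.05. Per3 (0.35), the PAR-domain transcription factor gene Hlf (0.59) and Per2 (0.29) had the smallest p values. Per1, which is a target of both the clock and the glucocorticoid receptor and was counted with the induced genes, was at -0.44 (SE 0.29, edgeR adjusted p = 1), with 18.7 to 33.4 CPM in Fpr2KO and 23.2 to 47.4 CPM in WT.

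**Figure D4:**
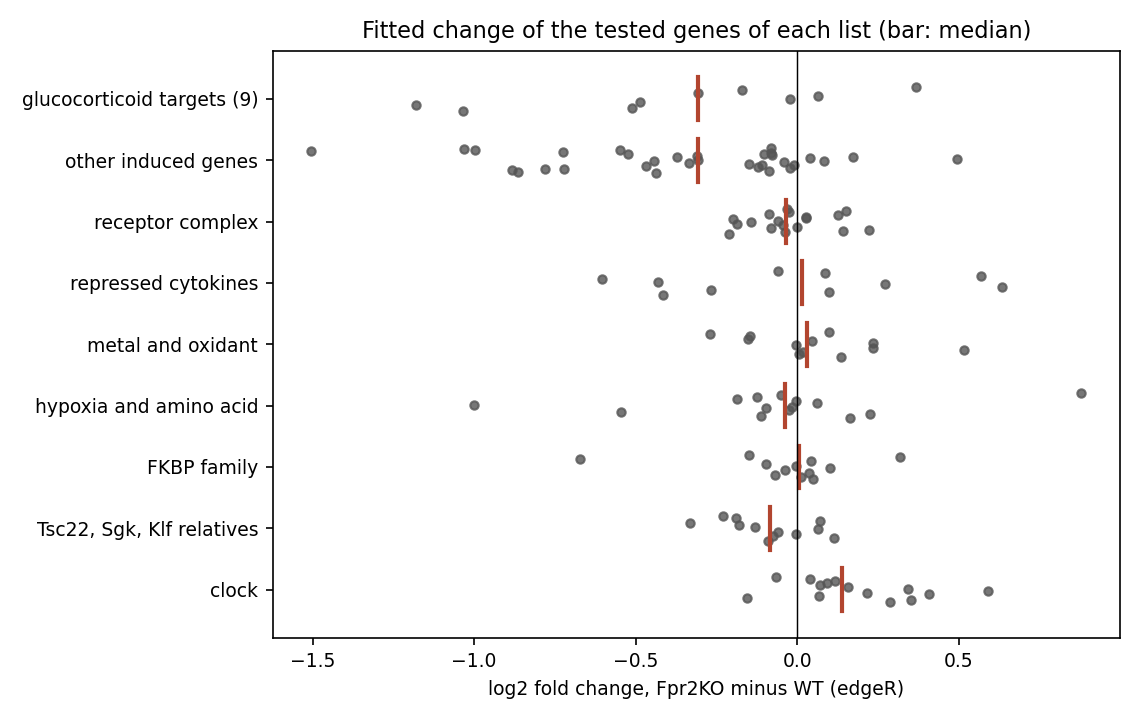
Log2 fold change (Fpr2KO minus WT, horizontal axis) of every tested gene in each list (points), with the median of the list as a red bar. The 9 glucocorticoid targets and the 32 other induced genes have medians of -0.31, and the remaining lists have medians between -0.084 and 0.14. The lists were chosen with earlier results of these data known.

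Levels were compared between the members as mean CPM per kilobase of merged annotated exons. In Fpr2KO, Ddit4 was highest at 79.2 CPM per kilobase, followed by Mt2 at 58.6, Tsc22d3 at 42.9, Mt1 at 29.6, Nr3c1 at 21.1, Sgk1 at 12.0, Fkbp5 at 9.77, Klf9 at 5.82 and Zbtb16 at 0.628. The place of Mt2 rested on Fpr2KO replicate 1, without which Mt2 was at 32.6 and Tsc22d3 at 48.3 CPM per kilobase in Fpr2KO. The place of Mt1 above Nr3c1 rested on the same library, without which Mt1 was at 19.97 and Nr3c1 at 21.8 CPM per kilobase. In WT the order began with Ddit4 at 98.0, Tsc22d3 at 61.1, Mt2 at 45.3 and Mt1 at 33.3 CPM per kilobase, and Fkbp5 at 20.0 stood beside Nr3c1 at 20.2. Sgk1 at 12.2, Klf9 at 8.15 and Zbtb16 at 1.43 CPM per kilobase followed in WT. Without WT replicate 3, Fkbp5 was at 25.1 and Nr3c1 at 20.7 CPM per kilobase in WT. Positions that differ between the groups, those of Mt2 with Tsc22d3 and of Fkbp5 with Sgk1, involve genes whose groups overlapped.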

How the data were processed

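The table deposited by the authors held raw counts of reads for 55414 genes in 7 samples. Per the submitters' processing notes, FastQC 0.10.1 and HTSeq 0.10.0 were used with mm10 (GRCm38). The aligner, the annotation release and the strand setting are not given in the sources used here. Per the labels' protocols, libraries came from a NEBNext Ultra II RNA kit. Symbols, positions and exon lengths came from GENCODE M21, which matched 52133 IDs holding 99.8% of counts.

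Total counts ran from 14968605 to 18692809. Fpr2KO was tested against WT by the robust quasi-likelihood F test of edgeR 4.0.16 (R 4.3.3) after TMM scaling and filterByExpr, with Benjamini-Hochberg adjustment over all 16089 tested genes. An SE is the absolute log2 fold change divided by the square root of F. CPM are TMM-scaled counts, and log2 CPM uses a prior count of 2. Alternatives included DESeq2 1.42.0 and limma-voom (limma 3.58.1). The fitting step was first tested on simulated data. Members and gene lists were chosen with earlier results of these data known. Named genes were the members, up to 3 tested genes of each pathway list with the smallest p, the 5 genes most like Fkbp5, its 3 nearest tested genes on each side and the most abundant markers. Any others were named for their role or, where so stated, once their values were known. Promoters came from RefSeq (GRCm38.p6). No protein sequence was used here.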

Additional observations from a re-analysis of the deposited data

How the results depend on the processing

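Over all genes edgeR called 6, against 58 with DESeq2, 21 without a low count filter and 2 with the replicate number as a block. Leaving out 1 library gave 5 to 15, the 15 with WT replicate 3 left out and 10 with WT replicate 1 left out. The members called were 0 under every alternative run. The induced genes called were 0 to 1 with 1 library left out, the 1 being Pik3ip1 without WT replicate 3. Fkbp5, Tsc22d3, Zbtb16, Klf9 and Ddit4 stayed lower in Fpr2KO in every fit run. With 1 library left out the log2 fold changes ran from -1.36 to -0.83 for Fkbp5, -0.11 to 0.071 for Sgk1, -0.025 to 0.20 for Nr3c1, -0.72 to 0.13 for Mt1 and -0.46 to 0.83 for Mt2. Sgk1 also turned above 0 with limma-voom (0.044), with the replicate block (0.009), without Fpr2KO replicates 1 and 2 (0.018) and, as a difference of mean log2 CPM, with total counts in place of TMM (0.068). Mt2 turned to -0.15 without Fpr2KO replicates 1 and 2. The cause of these changes was not tested. The labels do not say whether replicate numbers pair the samples. Deviations of same-numbered libraries correlated at 0.078, -0.43 and -0.073, and so few libraries cannot exclude a pairing. Groups of 3 and 4 limit the exact tests to p values of 0.0286 and above.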
